A study of Mus musculus with 48 samples.

Results

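The genes described here carry out glucose, glycogen and pyruvate metabolism in the liver of Wfs1 mutant mice given valproic acid (VPA), an antiepileptic drug that inhibits histone deacetylases. They are a list of 32 genes chosen by name, of which 28 were named by a probeset with a single gene symbol in the array annotation, out of 19938 genes named in that way. Gpi1, Pfkfb1, Eno1 and Mpc2 were not analysed here. The 48 male mice fell into 6 groups of 8, with 1 array of whole liver RNA per mouse: KO (Wfs1-/-), HZ (Wfs1+/-) and WT (Wfs1+/+) mice, each given either VPA (300 mg/kg a day) or saline (10 mL/kg a day) by intraperitoneal injection. Injections went on for 12 weeks from an age of 4 to 6 weeks. A glucose tolerance test was made in all groups a day after the last injection. Killing followed a day after that test, at an age of 16 to 18 weeks, so that livers were not taken directly after a dose. In KO mice part of Wfs1, which encodes wolframin, found in the membrane of the endoplasmic reticulum, is removed in every tissue and not in the liver alone. The values are log2 expression values made by RMA, a method that corrects background, gives all arrays a shared distribution and summarizes the probes of a probeset.

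The liver keeps blood glucose steady by storing it as glycogen after a meal and by releasing glucose from glycogen and from new synthesis between meals. Gluconeogenesis makes glucose from lactate, amino acids and glycerol, and glycolysis runs the other way to pyruvate, which enters mitochondria and is either oxidized by the pyruvate dehydrogenase complex or carboxylated for new glucose. Many genes of these pathways follow feeding, hormones and the circadian clock, so that their mRNA in liver varies over the day.

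By role, 6 measured members belong to gluconeogenesis (Pck1, G6pc, Fbp1, Pcx, Slc37a4 and Tat), 9 to glucose entry and glycolysis (Slc2a2, Pfkl, Pfkfb3, Tpi1, Pgk1, Pgam1, Pklr, Ldha and Gpd1), 7 to pyruvate (Mpc1, Pdha1, Pdhb, Dlat, Pdk1, Pdk2 and Pdk4) and 6 to glycogen (Gys2, Gbe1, Pygl, Ppp1r3b, Ppp1r3c and Ugp2). All 28 had a mean over the arrays above the median of all probesets, and the lowest mean was 7.20 on the log2 scale, for Pfkfb3. Within groups, Pfkl (SD 0.12), Pgk1 (0.13) and Slc2a2 (0.14) varied least from mouse to mouse, and Pdk4 (0.70), Pck1 (0.56) and Pfkfb3 (0.52) varied most. The median within-group SD was 0.22 for the members and 0.18 for all probesets. The means of the 6 groups were farthest apart for Pdk4, with a range of 2.28, followed by Ppp1r3c with 1.35, and closest for Fbp1 with 0.11. Pgk1 and Pgam1 have 3 probesets each, which correlated over the 48 arrays by at least 0.99 for Pgk1 and 0.96 for Pgam1, and the brightest of them stands for the gene. Probesets 10399379 and 10498313 of Pgk1 had the same summary values in every group. So did 10463168 and 10561302 of Pgam1, and the 3 probesets of each gene are therefore not separate measures. Both genes have near-identical copies in the genome that these probesets may not tell apart. The place in the genome of these probesets and of the Mpc1 probeset (10402648) was not checked.

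**Figure D1:**
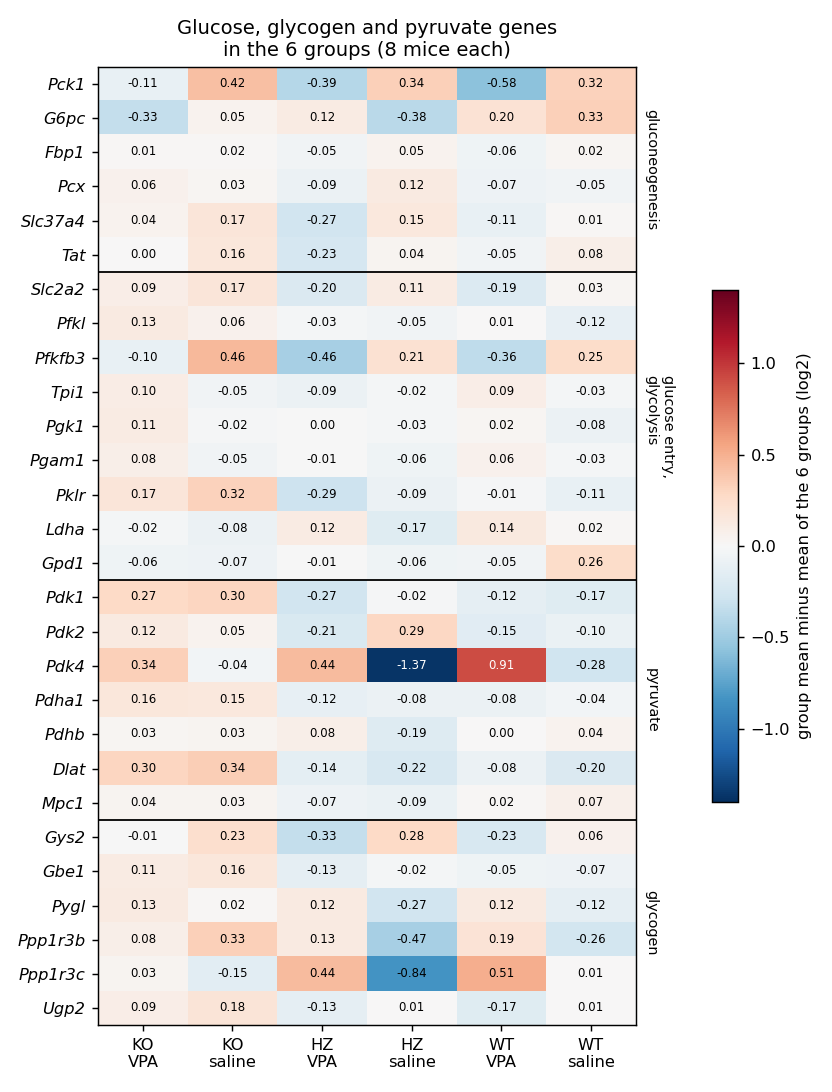
Group mean of each of the 28 members (rows, by role) minus the mean of the 6 groups, on the log2 scale, with the value written in each cell and 8 mice in each group (columns). Pdk4 and Ppp1r3c were lowest in HZ saline mice, and Dlat and Pdk1 were highest in both groups of KO mice.

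Promoter windows from RefSeq (mouse build GRCm38.p6), which run from 250 bases before to 50 bases after a gene start, were matched by symbol to 25 of the 28 genes, with 35 windows because some genes have several starts. They were searched on both strands for the E-box CACGTG, which the clock activators bind, the D-box TTATGTAA or TTACGTAA, which Dbp, Tef and Hlf bind, the cAMP response element TGACGTCA, and the direct repeat that pairs of nuclear receptors bind (AGGTCA, any base, then AGGTCA again). The E-box stood in 14.3% of the member windows and in 7.15% of all 32851 windows. The cAMP response element was found in 2.86% of member windows against 1.79% of all, the D-box in 2.86% against 1.06%, and the direct repeat in 0 member windows against 0.0396% of all. A match is a description of these letters, not a site of binding. The windows of 4 members whose mRNA differed between groups in the comparisons below are shown, 5′ to 3′ on the strand of the gene, with the matched letters in capitals: G6pc (chr11:101367466-101367765, plus strand, with a D-box at position -162 from the start), Ppp1r3c (chr19:36736555-36736854, minus strand, E-box at -104), the second start of Pfkfb3 (chr2:11502041-11502340, minus strand, E-box at -53) and the first start of Ldha (chr7:46845554-46845853, plus strand, E-boxes at -145 and -48 and a cAMP response element at -12).
G6pc: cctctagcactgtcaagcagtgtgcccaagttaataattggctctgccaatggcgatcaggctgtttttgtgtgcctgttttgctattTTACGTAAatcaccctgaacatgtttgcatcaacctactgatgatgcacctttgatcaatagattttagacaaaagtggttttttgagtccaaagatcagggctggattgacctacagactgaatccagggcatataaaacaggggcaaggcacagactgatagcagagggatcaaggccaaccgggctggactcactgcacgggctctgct
Ppp1r3c: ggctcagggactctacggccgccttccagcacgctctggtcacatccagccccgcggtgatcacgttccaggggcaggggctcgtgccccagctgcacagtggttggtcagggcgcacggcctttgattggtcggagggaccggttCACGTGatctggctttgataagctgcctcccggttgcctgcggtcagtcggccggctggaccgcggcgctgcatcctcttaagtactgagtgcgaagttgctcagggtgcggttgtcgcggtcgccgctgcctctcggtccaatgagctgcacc
Pfkfb3: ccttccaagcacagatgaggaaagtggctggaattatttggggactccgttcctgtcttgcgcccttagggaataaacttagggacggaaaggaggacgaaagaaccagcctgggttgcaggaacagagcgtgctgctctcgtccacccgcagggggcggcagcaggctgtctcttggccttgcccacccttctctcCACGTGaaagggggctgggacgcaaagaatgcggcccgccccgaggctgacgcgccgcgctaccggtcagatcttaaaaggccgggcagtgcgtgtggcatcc
Ldha: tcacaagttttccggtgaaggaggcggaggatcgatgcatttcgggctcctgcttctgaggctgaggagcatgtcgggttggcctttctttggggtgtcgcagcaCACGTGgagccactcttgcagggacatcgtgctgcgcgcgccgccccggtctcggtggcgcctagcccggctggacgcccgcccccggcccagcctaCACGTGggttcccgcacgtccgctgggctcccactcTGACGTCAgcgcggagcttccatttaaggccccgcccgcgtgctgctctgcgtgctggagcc
E-boxes were also found in windows of Pdk2 (-126) and Pcx (-248). The windows of Pck1, Pdk4, Tat, Slc2a2, Slc37a4 and Pygl held no exact match to any of the 4 motifs. Near matches were not counted, such as TTACGTCA in the window of Pck1, which is close to the cAMP response element TGACGTCA. The search therefore does not show that these promoters lack such an element.

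After RMA the median of an array lay between 6.90 and 7.03, and pairs of arrays correlated by 0.971 to 0.994. The tissue label fitted its markers: the mean log2 value of 5 hepatocyte genes lay between 13.9 and 14.1 in all 6 groups. The Wfs1 probeset averaged 8.34 ± 0.21 in KO VPA and 8.28 ± 0.12 in KO saline mice, against 8.48 ± 0.31 in WT VPA and 8.43 ± 0.10 in WT saline mice (SD, n = 8 each). It also covers the parts of the gene that the mutation leaves intact and does not check the labels. In RNA of whole liver, fewer cells of a type and less RNA per cell cannot be told apart. Group means were compared with limma, in 1 fit of all 48 arrays, with Benjamini-Hochberg adjustment of the p-values of all 35556 probesets. A member is counted as higher or lower at an adjusted p under 0.05.

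KO mice were compared with WT mice over both treatments to ask which of these genes differed with the Wfs1 genotype. Of the 28 members, 4 were higher and 1 was lower in KO livers. Of all probesets 2.94% were called (1.37% higher and 1.57% lower), and of the brighter probesets, those with 1 symbol and a mean of at least 7, 6.28% were called. The highest differences were those of Dlat and Pdk1, which encode a subunit of the pyruvate dehydrogenase complex and a kinase that inhibits the complex, each about 0.4 to 0.5 on the log2 scale. The glucose transporter Slc2a2 and the liver phosphofructokinase Pfkl were higher by smaller amounts, and G6pc, the catalytic subunit of glucose-6-phosphatase, was lower. The median difference over the 28 members was 0.13, against 0.01 over all probesets.

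Dlat (the E2 subunit of pyruvate dehydrogenase, probeset 10593367) lay between 9.94 and 10.52 with a median of 10.36 in KO VPA mice and between 9.71 and 11.01 with a median of 10.47 in KO saline mice. In WT mice it lay between 9.64 and 10.21 with a median of 9.89 under VPA and between 9.55 and 9.95 with a median of 9.87 under saline. The groups overlapped, but 14 of 16 KO mice exceeded the mean of the WT mice given the same injection, and the difference was 0.46 (1.38-fold, SE 0.09, limma adjusted p = 0.00201). Within saline mice it was 0.54 (SE 0.13, limma adjusted p = 0.0340), where Dlat was the only member called and 0.790% of probesets were called. Within VPA mice it was 0.38 (SE 0.13, limma adjusted p = 0.303), where no member was called, 9 had an unadjusted p under 0.05 and 0.405% of probesets were called.

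Pdk1 (pyruvate dehydrogenase kinase 1, probeset 10472846) ranged from 10.50 to 10.99 (median 10.65) in KO VPA mice and from 10.18 to 11.11 (median 10.84) in KO saline mice. Its range was 9.93 to 10.58 (median 10.32) in WT VPA mice and 10.04 to 10.45 (median 10.23) in WT saline mice. Again 14 of 16 KO mice exceeded that mean, with a difference of 0.43 (1.35-fold, SE 0.09, limma adjusted p = 0.00363). The KO saline mice were spread widely, and the lowest of them lay within the WT range.

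Slc2a2 (the transporter that carries glucose across the hepatocyte membrane, probeset 10491171) ranged from 12.09 to 12.76 (median 12.43) in KO VPA mice and from 12.35 to 12.63 (median 12.48) in KO saline mice. In WT mice the range was 11.97 to 12.26 (median 12.15) under VPA and 12.14 to 12.47 (median 12.36) under saline. KO mice exceeded the mean of the WT mice given the same injection in 15 of 16 cases, and the difference was 0.21 (1.16-fold, SE 0.05, limma adjusted p = 0.00864). Pfkl (which commits fructose 6-phosphate to glycolysis, probeset 10370376) had a median of 8.75 in KO VPA mice (8.57 to 8.83) and 8.74 in KO saline mice (8.28 to 8.95), against 8.60 in WT VPA mice (8.47 to 8.75) and 8.48 in WT saline mice (8.38 to 8.65). It was higher in KO mice by 0.15 (1.11-fold, SE 0.04, limma adjusted p = 0.0432), with 13 of 16 above the corresponding WT mean.

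G6pc (which frees glucose from glucose 6-phosphate in the last step of glucose release, probeset 10381387) had a median of 12.74 in KO VPA mice (12.02 to 13.43) and 13.14 in KO saline mice (12.59 to 13.49). The median was 13.34 in WT VPA mice (12.67 to 13.51) and 13.46 in WT saline mice (12.96 to 13.75). It was lower in KO mice by a log2 difference of -0.41 (0.755-fold, SE 0.12, limma adjusted p = 0.0400), and 13 of 16 KO mice were below the corresponding WT mean. The calls for G6pc and Pfkl were narrow: each was lost when any 1 of 19 (G6pc) or 20 (Pfkl) of the 48 mice was left out, at values of -0.45 to -0.35 and 0.13 to 0.18. The groups overlapped for this gene and for every other member: no member separated KO from WT mice under VPA, where 0.143% of all probesets did, or under saline, where 0.0816% did.

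**Figure D2:**
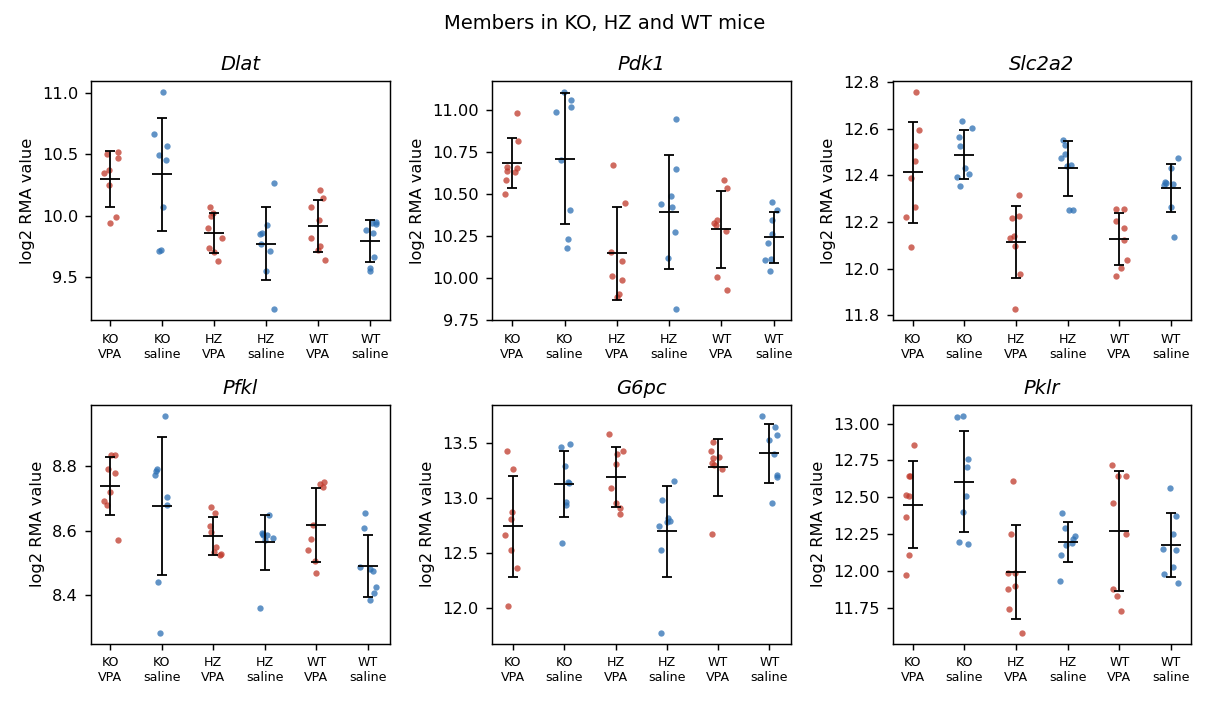
Log2 RMA value of each mouse for 6 members, by genotype and treatment (VPA in red, saline in blue; horizontal line and bars, mean ± SD, 8 mice per group). Dlat, Pdk1, Slc2a2 and Pfkl were higher in KO than in WT mice and G6pc was lower, with overlapping ranges, and Pklr was higher in KO than in HZ mice.

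The remaining members did not pass the test. Pdha1, the E1 alpha subunit of pyruvate dehydrogenase, differed by 0.21 (limma adjusted p = 0.0567), and Ugp2, which makes the UDP-glucose used for glycogen, by 0.22 (limma adjusted p = 0.0734). Pklr, the liver pyruvate kinase, differed by 0.31 (limma adjusted p = 0.104), with 14 of 16 KO mice above the corresponding WT mean. Pdhb, the E1 beta subunit, differed by 0.01 with a 95% interval of -0.18 to 0.20, and Mpc1, a subunit of the mitochondrial pyruvate carrier, by -0.01 with an interval of -0.15 to 0.13. None of the 6 glycogen members passed, with differences between -0.32 (Ppp1r3c) and 0.24 (Ppp1r3b). Of the gluconeogenic members besides G6pc, Pck1 differed by 0.28 (limma adjusted p = 0.576), and Fbp1, fructose-1,6-bisphosphatase, by 0.03 with an interval of -0.08 to 0.15. The glycolytic enzymes Tpi1, Pgam1 and Pgk1, which act between the triose phosphates and pyruvate, lay close to 0, the farthest being Pgk1 at 0.07 (95% interval -0.02 to 0.17). Those members not yet named in this comparison differed by between -0.17 (Pdk4 and Gpd1, which links glycolysis to glycerol 3-phosphate) and 0.23 (Pfkfb3), with Pcx, pyruvate carboxylase, at 0.11.

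Of 79 other measured genes of these pathways, listed by function, 5 were higher and 2 lower in KO mice (8.86%, against 6.28% of the brighter probesets with 1 symbol). Those higher were Ppp1r3g, a glycogen-targeting subunit of protein phosphatase 1 (0.70), Ppargc1a, a coactivator of gluconeogenic genes (0.64), Khk, the fructokinase (0.31), Gpt, an alanine aminotransferase (0.25), and Gckr, the regulator of glucokinase (0.21), with limma adjusted p-values between 6.14e-04 and 0.0296. Of those higher, Ppargc1a, Khk and Gckr lie on the chromosome of Wfs1, and they are counted in the 8.86%. For them an effect of DNA carried along with the mutation cannot be told apart from that of losing Wfs1. Those lower were Phkb, a subunit of phosphorylase kinase (-0.31, limma adjusted p = 0.0105), and H6pd, a dehydrogenase of glucose 6-phosphate in the endoplasmic reticulum (-0.24, limma adjusted p = 0.0250). Their median difference was 0.04. Beside these differences, the 1 erythroid marker, Alas2, was lower in KO mice by -1.24 on the log2 scale, and 1 of 4 cholangiocyte and 1 of 3 pancreas markers were also lower, while 0 of 5 hepatocyte, 0 of 10 Kupffer cell, 0 of 6 endothelial and 0 of 6 stellate cell markers were called. Alas2 lay between 8.49 and 10.66 in KO VPA and between 8.15 and 10.17 in KO saline mice, against 10.41 to 11.26 in WT VPA and 10.42 to 11.02 in WT saline mice. The part of these cells in the results was not tested. Clock genes differed too, with 7 of 10 genes of the Dbp and Per phase higher and 2 of 3 of the Arntl phase lower in KO mice, and values with an index of them as a covariate are given after the other comparisons.

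KO and HZ mice were also compared over both treatments. In KO livers 4 members were higher and none lower, where 1.44% of all probesets were called (0.661% higher and 0.779% lower). They were Dlat (0.50, SE 0.09, limma adjusted p = 0.00135), Pdk1 (0.43, SE 0.09, limma adjusted p = 0.00656), Pklr (0.43, SE 0.10, limma adjusted p = 0.0146) and Pdha1 (0.25, SE 0.06, limma adjusted p = 0.0259). Dlat and Pdha1 encode subunits of the pyruvate dehydrogenase complex, Pdk1 a kinase that inhibits it, and Pklr an enzyme that makes pyruvate. Of the 79 other pathway genes, 8 (10.1%) were called between KO and HZ mice, and 0 of the 6 of them listed under pyruvate. Pklr had a median of 12.51 in KO VPA mice (11.98 to 12.86) and 12.61 in KO saline mice (12.18 to 13.05), against 11.95 in HZ VPA mice (11.58 to 12.61) and 12.21 in HZ saline mice (11.93 to 12.39). Pdha1 had a median of 10.12 in KO VPA mice (9.69 to 10.38) and 10.10 in KO saline mice (9.88 to 10.36), against 9.80 in HZ VPA mice (9.54 to 10.14) and 9.92 in HZ saline mice (9.54 to 10.24). Both genes were higher in KO mice with overlapping ranges. Within saline mice Pdk4 (1.33, SE 0.34, limma adjusted p = 0.0293) and Dlat (0.56, limma adjusted p = 0.0156) were higher in KO than in HZ mice, where 1.39% of probesets were called. Within VPA mice Slc2a2 was the 1 member called (0.30, limma adjusted p = 0.0494), where 0.298% of probesets were called. Markers of other cells differed in the same comparison: over both treatments 1 of 6 endothelial and 1 of 6 stellate cell markers were higher in KO mice, 1 of 4 cholangiocyte markers was lower and Alas2 was lower by -1.17 on the log2 scale. Within saline mice 3 of 6 endothelial markers and 1 of 6 stellate cell markers were higher, and the mean of the endothelial markers ranged from 9.30 to 9.77 in KO saline mice and from 8.91 to 9.22 in HZ saline mice, without overlap. Clock genes differed too. Of 10 genes of the Dbp and Per phase, 4 were higher in KO VPA than in HZ VPA mice. Of 3 of the Arntl phase, 2 were lower there. In saline mice 1 of the 10 was lower and 1 of the 3 higher in KO than in HZ mice, and over both treatments 0 were called. The part of these cells and clock genes was not tested. The KO mice of these comparisons are those compared with WT mice above, so that the results for Dlat and Pdk1 share their KO samples.

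No member was called between HZ and WT mice over both treatments in the limma fit. Of the 28 members, 3 had an unadjusted p under 0.05 and 0.00281% of all probesets were called. G6pc differed by -0.40 (limma adjusted p = 0.548), Pdk4 by -0.78 (limma adjusted p = 0.592) and Ppp1r3c by -0.46 (limma adjusted p = 0.683). Within saline mice G6pc was lower in HZ mice by -0.71 (0.613-fold, SE 0.16, limma adjusted p = 0.0363), with a median of 12.79 (11.78 to 13.16) in HZ saline mice and 13.46 (12.96 to 13.75) in WT saline mice. This was the 1 member called there, against 0.304% of all probesets. The lowest HZ saline mouse for G6pc, at 11.78, lay apart from the next at 12.53. The same HZ saline mice are the reference for VPA within HZ mice below. Between HZ and WT saline mice, 3 of 10 clock genes of the Dbp and Per phase were higher and 2 of 3 of the Arntl phase lower. Of 6 stellate cell markers 1 was lower, and the part of these genes and cells was not tested. In the same saline mice Ppp1r3c differed by -0.85 (limma adjusted p = 0.0906) and Pdk4 by -1.09 (limma adjusted p = 0.173). Within VPA mice no member was called and none had an unadjusted p under 0.05, where 0.00281% of probesets were called and 0.00562% separated the mice without overlap.

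VPA was compared with saline over the 3 genotypes to ask how chronic treatment altered these genes. Of the 28 members, 4 were higher and 6 lower in VPA livers. Of all probesets 8.61% were called (4.01% higher and 4.6% lower), and of the brighter probesets with 1 symbol 13.9% were called. The kinase Pdk4, which turns off pyruvate oxidation, had the largest difference, 2.18-fold higher, and the glycogen-targeting subunit Ppp1r3c was 1.58-fold higher. The glycogen phosphorylase Pygl and lactate dehydrogenase A (Ldha) were also higher. Lower were Pck1, the first committed enzyme of gluconeogenesis, the glycolytic regulator Pfkfb3, the liver glycogen synthase Gys2, the glucose 6-phosphate transporter Slc37a4, Slc2a2 and the tyrosine aminotransferase Tat.

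By role, 3 of 6 gluconeogenic members were lower and none higher, 1 of 9 members of glucose entry and glycolysis was higher and 2 lower, 1 of 7 pyruvate members was higher, and 2 of 6 glycogen members were higher and 1 lower. The calls were lost without the HZ mice: with the KO and WT arrays alone, 0 of 28 members were called in the limma fit (9 at an unadjusted p under 0.05), where 0.219% of all probesets were called. In those arrays Pdk4 differed by 0.78 (limma adjusted p = 0.302), Pck1 by -0.71 (0.211), Ppp1r3c by 0.34 (0.539) and Gys2 by -0.26 (0.303), each in the same direction as in all mice.

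Pdk4 (probeset 10543017) ranged from 8.50 to 10.97 (median 9.53) in KO VPA mice and from 8.00 to 10.36 (median 9.51) in KO saline mice. In HZ mice the range was 8.92 to 10.18 (median 9.83) under VPA and 7.30 to 8.44 (median 8.03) under saline, without overlap. WT VPA mice ranged from 9.41 to 10.69 (median 10.21) and WT saline mice from 8.22 to 10.41 (median 8.69). VPA mice exceeded the saline mean of the same genotype in 21 of 24 cases, and the difference over the genotypes was 1.13 (SE 0.20, limma adjusted p = 1.41e-04). KO VPA and KO saline mice overlapped over most of their ranges.

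Ppp1r3c (probeset 10467206), which brings protein phosphatase 1 to glycogen, had a median of 9.96 in KO VPA mice (9.54 to 10.39) and 9.90 in KO saline mice (8.56 to 10.65). In HZ mice the median was 10.48 under VPA (9.29 to 11.14) and 9.06 under saline (8.69 to 9.50), and in WT mice it was 10.39 under VPA (9.84 to 11.10) and 9.90 under saline (9.04 to 10.56). The difference over the genotypes was 0.66 (SE 0.13, limma adjusted p = 8.35e-04), with 20 of 24 VPA mice above the saline mean of the same genotype. Pygl (probeset 10400844), which cuts glucose 1-phosphate from glycogen, was higher by 0.25 (1.19-fold, SE 0.05, limma adjusted p = 0.00249). Its median was 11.95 (KO), 11.96 (HZ) and 11.94 (WT) in VPA mice, against 11.84 (KO), 11.55 (HZ) and 11.65 (WT) in saline mice. Ldha (probeset 10553301), which interconverts lactate and pyruvate, was higher by 0.16 (1.11-fold, SE 0.05, limma adjusted p = 0.0286), and its median was 12.48 (KO), 12.61 (HZ) and 12.62 (WT) in VPA mice, against 12.42 (KO), 12.36 (HZ) and 12.54 (WT) in saline mice. For both genes the gap was widest in HZ mice.

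Pck1 (phosphoenolpyruvate carboxykinase, probeset 10479047) ranged from 11.63 to 12.93 (median 12.14) in KO VPA mice and from 11.88 to 13.67 (median 12.77) in KO saline mice. HZ VPA mice ranged from 11.25 to 12.40 (median 12.01), and HZ saline mice from 12.47 to 12.76 (median 12.66). WT VPA mice ranged from 10.05 to 13.04 (median 11.90) and WT saline mice from 12.12 to 13.19 (median 12.61). It was lower in VPA mice by -0.72 (0.608-fold, SE 0.15, limma adjusted p = 0.00220), with 21 of 24 below the saline mean of the same genotype, and the 2 lowest values of all were WT VPA mice. Pfkfb3 (probeset 10480035), which makes the activator fructose 2,6-bisphosphate, was lower by -0.62 (0.653-fold, SE 0.14, limma adjusted p = 0.00513). Its median was 6.88 (KO), 6.73 (HZ) and 6.66 (WT) in VPA mice, against 7.50 (KO), 7.18 (HZ) and 7.43 (WT) in saline mice.

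Gys2 (probeset 10549079), which lengthens glycogen chains, had a median of 11.76 in KO VPA mice (11.29 to 12.29) and 11.98 in KO saline mice (11.61 to 12.53). The median was 11.42 in HZ VPA (11.23 to 11.85) and 12.09 in HZ saline mice (11.84 to 12.21), and 11.59 in WT VPA (11.23 to 11.93) and 11.88 in WT saline mice (11.40 to 12.22). It was lower by -0.38 (0.769-fold, SE 0.07, limma adjusted p = 2.21e-04), and 22 of 24 VPA mice were below the saline mean of the same genotype, the highest such count among the members. Slc2a2 was lower by -0.20 (0.869-fold, SE 0.04, limma adjusted p = 0.00117), with 21 of 24 below, so that it was higher in KO than in WT mice and lower with VPA. Slc37a4 (probeset 10584741), which carries glucose 6-phosphate to glucose-6-phosphatase, was lower by -0.22 (0.858-fold, SE 0.06, limma adjusted p = 0.0210). Its median was 11.56 (KO), 11.17 (HZ) and 11.41 (WT) in VPA mice, against 11.72 (KO), 11.69 (HZ) and 11.50 (WT) in saline mice. Tat (probeset 10575349), which starts tyrosine breakdown and is a classic glucocorticoid-induced gene, was lower by -0.18 (0.880-fold, SE 0.06, limma adjusted p = 0.0396). The median of Tat was 13.63 (KO), 13.30 (HZ) and 13.47 (WT) in VPA mice, against 13.71 (KO), 13.56 (HZ) and 13.64 (WT) in saline mice, and its call was lost when any 1 of 19 of the 48 mice was left out, at values of -0.20 to -0.17.

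**Figure D3:**
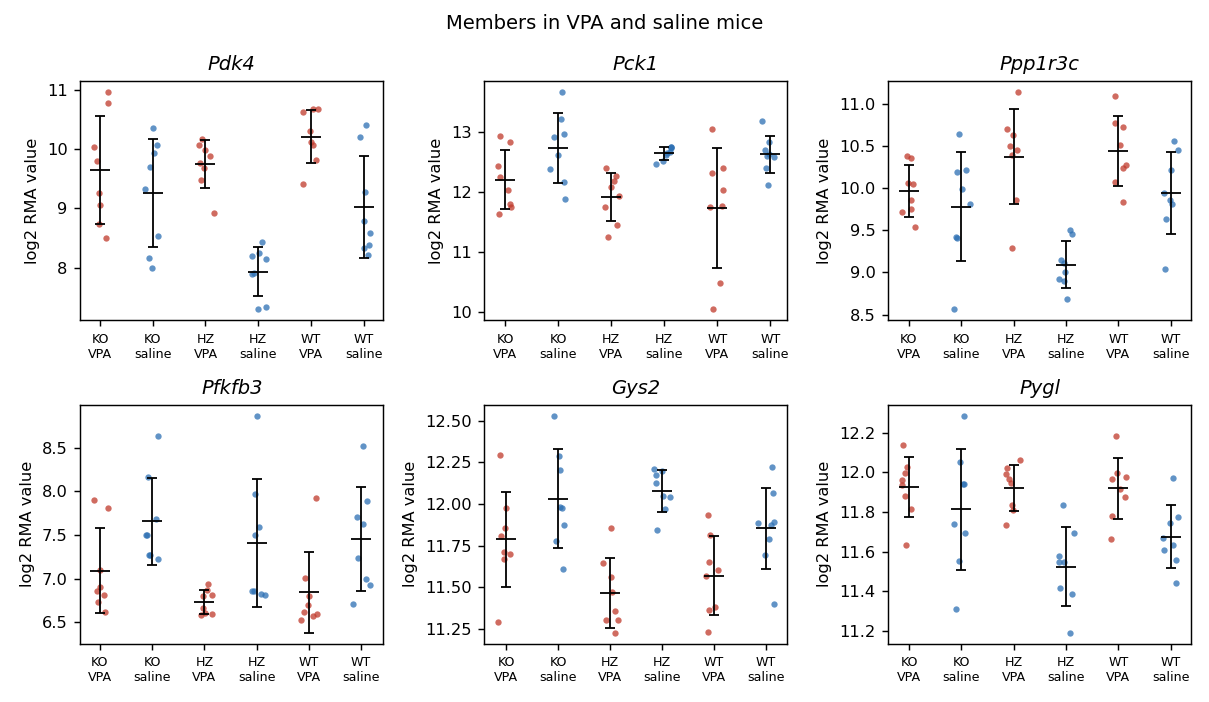
Log2 RMA value of each mouse for 6 members called between VPA and saline (VPA in red left of saline in blue for each genotype; horizontal line and bars, mean ± SD, 8 mice per group). The distance between VPA and saline mice was largest in HZ mice for Pdk4 and Ppp1r3c, and only HZ mice separated without overlap for Pdk4 and Pck1.

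The other 18 members were not called, with differences between -0.16 (Pdk2) and 0.26 (Ppp1r3b), and several had narrow intervals around 0. Fbp1 differed by -0.06 (95% interval -0.16 to 0.03), Pdha1 by -0.02 (-0.13 to 0.08), Mpc1 by -0.01 (-0.13 to 0.11) and Gbe1, the glycogen branching enzyme, by -0.05 (-0.17 to 0.07). G6pc differed by -0.01 (-0.20 to 0.18) over the genotypes, which averages values of opposite sign given below. Dlat and Pdk1, which were higher in KO mice, differed with VPA by 0.06 (limma adjusted p = 0.676) and -0.08 (limma adjusted p = 0.553). The median difference over the members was -0.04, against -0.02 over all probesets.

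Among the 79 other pathway genes, 6 were higher and 5 lower in VPA mice. This share of 13.9% equals that of the brighter probesets with 1 symbol. Higher were Ppard, a nuclear receptor for fatty acids (0.65), Slc16a1, a carrier of lactate and pyruvate (0.46), Pgd of the pentose phosphate pathway (0.37), Gyg, the primer of glycogen (0.22), Pgm2, a phosphoglucomutase (0.22), and Pdp1, the phosphatase that reactivates pyruvate dehydrogenase (0.20). Lower were 4 transcription factors that act on liver metabolism, Klf15 (-0.38), Ppara (-0.36), Foxo3 (-0.34) and Cebpa (-0.32), and the mitochondrial Pck2 (-0.14). Their limma adjusted p-values were all at most 0.0211. For Ppard the paper reports the strongest rise in WT and the lowest in KO mice, on the array and by qRT-PCR. In the interaction test here Ppard did not pass (limma adjusted p = 0.144). Markers of other cells moved with VPA as well: 5 of 10 Kupffer cell, 2 of 6 endothelial and 2 of 6 stellate cell markers were higher, while 0 of 5 hepatocyte markers were called. Of 4 cholangiocyte markers 1 was higher and 1 lower, and 1 of 4 neutrophil markers was lower. The mean of the Kupffer cell markers ranged from 8.97 to 9.50 in HZ VPA and from 8.26 to 9.10 in HZ saline mice, from 8.77 to 9.41 in KO VPA and from 8.56 to 9.37 in KO saline mice, and from 8.17 to 9.69 in WT VPA and from 8.19 to 9.48 in WT saline mice. The part of these cells in the results was not tested.

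Within HZ mice 5 members were higher and 4 lower with VPA. Of all probesets 10.5% were called (4.72% higher and 5.76% lower), and of the brighter ones with 1 symbol 14.6%. Pdk4 was 3.51-fold higher (1.81, SE 0.34, limma adjusted p = 4.48e-04) and Ppp1r3c 2.43-fold higher (1.28, SE 0.23, limma adjusted p = 2.02e-04). G6pc (0.49, limma adjusted p = 0.0452), Pygl (0.40, limma adjusted p = 0.00591) and Ldha (0.28, limma adjusted p = 0.0196) were also higher. Gys2 (-0.61, limma adjusted p = 6.83e-04), Pdk2, another kinase of pyruvate dehydrogenase (-0.50, limma adjusted p = 0.00569), Slc37a4 (-0.41, limma adjusted p = 0.0123) and Slc2a2 (-0.31, limma adjusted p = 0.00405) were lower. HZ VPA and HZ saline mice did not overlap for 4 of 28 members, Pdk4, Ldha and Ppp1r3b, each with all 8 VPA values above the saline values, and Pck1, with all 8 below. Such separation held for 1.7% of all probesets. Of these, Pck1 (-0.73, limma adjusted p = 0.0671) and Ppp1r3b (0.59, limma adjusted p = 0.0940), a glycogen-targeting subunit of the liver, did not pass the test, which pools the spread of all 6 groups. In the same HZ mice 7 of 10 Kupffer cell markers (median of the list 0.71), 4 of 6 endothelial and 3 of 6 stellate cell markers were higher with VPA. Of 4 cholangiocyte markers 1 was higher and 1 lower, 1 of 3 pancreas markers was higher and 1 of 4 neutrophil markers was lower. None of the hepatocyte markers (0 of 5) was called, and the part of these cells in the differences was not tested.

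Within KO mice no member was called with VPA in the limma fit, 3 had an unadjusted p under 0.05, and 0.0112% of all probesets were called. Pdk4 differed by 0.38 (95% interval -0.30 to 1.06), Ppp1r3c by 0.19 (-0.27 to 0.64), Pck1 by -0.52 (-1.06 to 0.02) and G6pc by -0.38 (-0.71 to -0.05). No member separated KO VPA from KO saline mice, where 0.0225% of probesets did. In KO mice the intervals of Pdk4, Ppp1r3c and Pck1 held 0. For each gene the interval is equally wide in all 3 genotypes, because the fit pools the spread of the groups. Within WT mice no member was called either, 9 had an unadjusted p under 0.05, and 0.0703% of all probesets were called. There Pdk4 differed by 1.19 (0.51 to 1.87), Pck1 by -0.90 (-1.44 to -0.36) and Ppp1r3c by 0.50 (0.05 to 0.95), and G6pc by -0.13 (-0.46 to 0.20). The intervals of KO and WT mice overlapped for each of these 4 genes, and no member separated WT VPA from WT saline mice, where 0.045% of probesets did.

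**Figure D4:**
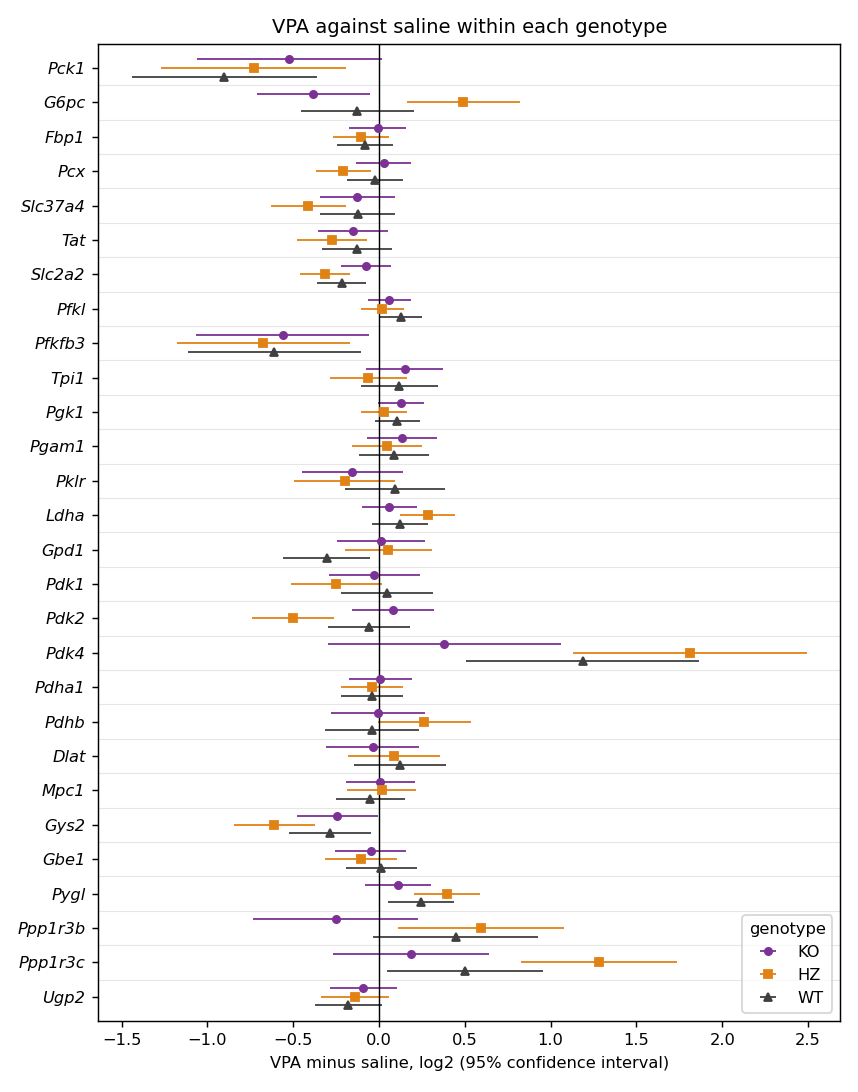
Difference between VPA and saline mice within KO (purple circles), HZ (orange squares) and WT mice (dark grey triangles) for the 28 members, on the log2 scale, with 95% confidence intervals from the fit of 48 arrays. Pdk4 was 1.81 higher with VPA in HZ mice, 1.19 in WT mice and 0.38 in KO mice, and G6pc was 0.49 higher in HZ mice and -0.38 in KO mice.

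A difference of the VPA effect between genotypes was tested as an interaction over all 3. No member passed in limma, 5 had an unadjusted p under 0.05, and 0.0816% of all probesets were called. The lowest adjusted p-values were those of G6pc (0.222), Pdk2 (0.304), Ppp1r3c (0.325), Pdk4 (0.490) and Ppp1r3b (0.588), by limma. For G6pc the VPA effect in KO mice minus that in HZ mice was -0.88 (95% interval -1.34 to -0.41, limma adjusted p = 0.0902), and for Ppp1r3c it was -1.10 (-1.74 to -0.46, limma adjusted p = 0.126). For Pdk2 that difference was 0.58 (0.24 to 0.92, limma adjusted p = 0.126), and for Pdk4 it was -1.43 (-2.39 to -0.47, limma adjusted p = 0.212). Thus calls within HZ mice that were missing in KO and WT mice were not shown to differ between the genotypes. Among the 79 other pathway genes, the brain-type aldolase Aldoc and the mitochondrial glycerol 3-phosphate dehydrogenase Gpd2 passed the interaction test. Aldoc differed with VPA by 0.52 in KO, -0.39 in HZ and -0.10 in WT mice, and Gpd2 by -0.23 in KO, 0.62 in HZ and -0.16 in WT mice.

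Clock genes moved with the groups: with VPA all 3 measured genes of the Arntl phase were higher and all 10 of the opposite phase lower by the same test. An index of clock state per mouse was the mean z score of 13 clock genes, with Arntl, Clock and Nfil3 counted as positive and 10 genes of the opposite phase, among them Dbp, Per2 and Nr1d1, as negative. Its median was -0.24 in KO VPA mice (-0.73 to 0.53) and -0.60 in KO saline mice (-1.004 to -0.073). It was 1.02 in HZ VPA mice (0.54 to 1.23) and -1.12 in HZ saline mice (-1.51 to -0.72), and 1.12 in WT VPA mice (0.73 to 1.55) and -0.36 in WT saline mice (-0.75 to 0.76). HZ VPA and HZ saline mice did not overlap in it, and the KO groups lay closest together. In KO VPA mice the index was 0.37, 0.37, 0.53 and -0.14 in replicates 1 to 4. In replicates 5 to 8 of that group it was -0.33, -0.44, -0.73 and -0.39. KO saline mice showed no such split, with -0.25, -0.96, -0.07 and -1.004 in replicates 1 to 4. In their replicates 5 to 8 it was -0.23, -0.26, -0.98 and -0.94. A relation of the index to the replicate number was not tested. The hour at which each mouse was killed was not given in the sources used here.

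Among mice of the same group, 9 of 28 members correlated with the index after adjustment over the 28 relations (deviations from group means, 48 mice, two-sided permutation tests within groups). The permutations did not hold the replicate number fixed, and its part in these correlations was not tested. A correlation at least as large as the smallest of the 9 (an absolute r of 0.396) was found for 2.19% of all probesets and 3.83% of the brighter ones with 1 symbol. The closest was Tat (Pearson r = -0.66, adjusted permutation p = 5.6e-04; Spearman rho = -0.65, adjusted permutation p = 5.6e-04), whose r was -0.61 without the 2 mice farthest from the median index. Slc2a2 (r = -0.58), Gys2 (-0.57), Pfkfb3 (-0.55), Pck1 (-0.49), Slc37a4 (-0.41) and Pdk2 (-0.40) were lower at a higher index, with adjusted permutation p-values of at most 0.0359 for r and 0.0483 for rho. Pdk4 (r = 0.54, rho = 0.54) and Pygl (r = 0.44, rho = 0.50) were higher at a higher index, with adjusted permutation p-values of at most 0.0157. Spearman's rho was -0.61 for Slc2a2, -0.55 for Gys2, -0.54 for Pfkfb3, -0.53 for Pck1, -0.39 for Slc37a4 and -0.42 for Pdk2. Without the 2 mice farthest from the median index, r was -0.63 for Slc2a2, -0.54 for Gys2, -0.49 for Pfkfb3, -0.45 for Pck1, -0.41 for Slc37a4, -0.48 for Pdk2, 0.43 for Pdk4 and 0.42 for Pygl. Ppp1r3c had r = 0.36 (adjusted permutation p = 0.051), and Dlat (r = 0.17) and Pdk1 (r = 0.16), the genes that were higher in KO mice, did not pass, with adjusted permutation p-values of 0.429 and 0.427.

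**Figure D5:**
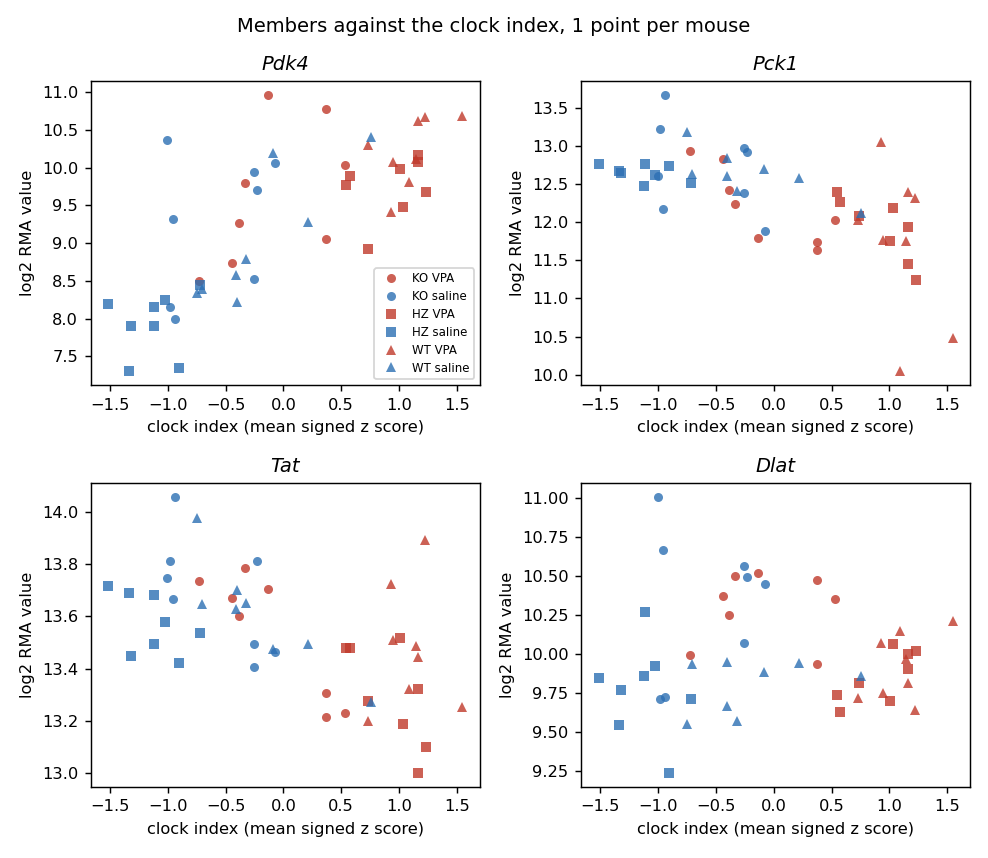
Log2 RMA value of 4 members against the clock index (mean signed z score), 1 point per mouse, with VPA in red, saline in blue, KO as circles, HZ as squares and WT as triangles. Pdk4 was higher and Pck1 and Tat were lower at a higher index, and the highest Dlat values were those of KO mice.

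With the clock index as a covariate in the same fit, 0 of 28 members were called between VPA and saline in limma, 2 had an unadjusted p under 0.05, and 0 of all 35556 probesets were called. The Pdk4 difference was then -0.17 (SE 0.35), that of Pck1 0.23 (SE 0.29), that of Gys2 0.10 (SE 0.12) and that of Ppp1r3c 0.07 (SE 0.26). Ldha kept its direction at 0.22 (SE 0.10), against 0.16 without the covariate. Tat was at 0.28 (SE 0.10), against -0.18 without it. Between KO and WT mice, Dlat (0.56, SE 0.13, limma adjusted p = 0.0221) and Pdk1 (0.52, SE 0.13, limma adjusted p = 0.0365) were still called, while Slc2a2 differed by 0.04 (SE 0.06, limma adjusted p = 0.910), Pfkl by 0.12 and G6pc by -0.45 without passing. The index and the treatment moved together, so that the standard error of the Pdk4 difference was 0.35 with the covariate, against 0.20 without it, and the part of the clock genes in the VPA differences cannot be told apart from the treatment.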

How the data were processed

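Total RNA from the livers of 48 mice was hybridized to Affymetrix Mouse Gene 1.0 ST arrays. The deposited values are log2 expression values of 35556 probesets, which the authors made with RMA in Affymetrix Expression Console 1.1.2800.28061, and they were used without further scaling. GEO's platform annotation gave 1 symbol to 21789 probesets, several to 1621 and none to 12146, and only those with 1 symbol named a gene. A gene with several probesets was represented by the brightest. A linear model with a mean for each of the 6 groups (42 residual degrees of freedom) was fitted by lmFit and eBayes of limma 3.58.1, run in R 4.3.3, contrasts were averaged with equal weight, and p-values were Benjamini-Hochberg adjusted over all probesets. The number of arrays limits the precision, and no batch was given in the labels. Members past the adjusted threshold in a main comparison were given with values per group, the others as ranges and counts, and up to 10 other pathway genes per comparison were named by size. The gene lists and members were chosen with earlier results of these data known. Correlations used 100000 permutations within groups (Python 3.11.15, numpy 2.4.6), figures matplotlib 3.10.9, and both tests were tested on simulated data. Alternatives covered scaling, filters, variance moderation, array weights, arrays in the fit, the replicate number, the clock index and each array left out. Columns not mapped to a sample numbered 0.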

Additional observations from a re-analysis of the deposited data

Results flagged for a closer look

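In 168 groups of 8 mice (28 members in 6 groups), 11 had a lowest or highest mouse whose gap to the next, as a share of the range of the group, exceeded the limit of Dixon's test at the 95% level, which chance passes in about 1 in 20 groups. Of these, 2 were G6pc values, 11.78 in HZ saline replicate 5 (next mouse 12.53) and 12.67 in WT VPA replicate 1 (next 13.26), both the lowest of their group. Slc37a4 was low at 11.01 in KO VPA replicate 3 (next 11.49) and high at 11.71 in HZ VPA replicate 3 (next 11.29). Fbp1 was high at 13.73 in WT VPA replicate 3 (next 13.44), and Gpd1, the cytosolic glycerol 3-phosphate dehydrogenase, was low at 11.34 in WT VPA replicate 1 (next 11.70). Among glycolytic members, Pfkl was low at 8.36 in HZ saline replicate 1 (next 8.57), Pfkfb3 was high at 7.92 in WT VPA replicate 8 (next 7.00), Tpi1, triose-phosphate isomerase, was high at 12.42 in HZ saline replicate 7 (next 12.11), and Pgk1, phosphoglycerate kinase, was low at 11.49 in HZ VPA replicate 5 (next 11.69). Pdha1 was low at 9.69 in KO VPA replicate 7 (next 10.06).

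The VPA effect differed among the genotypes for 2 of the 79 other pathway genes by the limma interaction test. The adjusted p was 0.0210 for Aldoc, whose VPA effect in KO mice minus that in HZ mice was 0.91, and 0.0247 for Gpd2, where it was -0.85.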

How the results depend on the processing

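Among 9 alternatives besides leaving out arrays, the 5 members called between KO and WT mice kept their direction and call in 38 values and lost only the call in 7, and the 10 called between VPA and saline kept both in 69, lost only the call in 13 and changed sign in 8. With the clock index as a covariate, 2 members were called between KO and WT, 0 between VPA and saline and 0 in the interaction, and the differences between VPA and saline changed sign for Pck1 (0.23), Slc37a4 (0.094), Slc2a2 (0.082), Pfkfb3 (0.38), Pdk4 (-0.17), Gys2 (0.096), Pygl (-0.038) and Tat (0.28). With the KO and WT arrays alone, a fit on fewer mice, 0 members were called between VPA and saline (78 probesets in place of 3062), and between KO and WT the calls of G6pc and Pfkl were lost and one of Pdha1 was added. With array weights 1 member, Pdk2, was called in the interaction, and between KO and WT the call of G6pc was lost and one of Pklr was added. The other alternatives gave 4 to 7 members between KO and WT, adding Pdha1 or Ugp2 or losing Pfkl when each array was centred on its median, which also lost Tat. The cause of these changes was not tested.

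Counts over all probesets moved by more than 1.5 times in some settings. Between KO and WT there were 1046, against 195 with the clock covariate and 689 with the KO and WT arrays alone, and between VPA and saline 3062, against 0 with the clock covariate. In the interaction there were 29, against 133 with array weights, 54 with the replicate block, 54 with only probesets of 1 symbol, 44 after quantile normalization, 0 with the clock covariate and 0 with the KO and WT arrays alone. HZ and WT mice differed in 1 probeset, against 6 with their arrays alone, 4 with only probesets of 1 symbol, 2 with a mean filter and 2 with the block.

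Leaving out each array in turn gave 3 to 7 members between KO and WT, 9 to 10 between VPA and saline, and 0 between HZ and WT and in the interaction. The call of G6pc was lost without WT saline 1, 3, 4, 6 or 8, KO saline 2, 4 or 7, WT VPA 2 to 8, or KO VPA 1, 2, 5 or 8. That of Pfkl was lost without WT saline 3, 5, 6, 7 or 8, KO saline 2, 3, 4, 5, 7 or 8, WT VPA 1, 2, 4, 6 or 7, or KO VPA 2, 4, 5 or 8. That of Tat was lost without WT saline 5 to 8, HZ saline 6, 7 or 8, KO saline 5, 7 or 8, WT VPA 1 or 2, HZ VPA 1, 2, 4 or 6, or KO VPA 1, 2 or 3. The other 12 calls were kept in all 48.

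The labels number the mice 1 to 8 in every group and do not say that a number pairs mice, and the main fit did not pair them. Of 120 pairs with the same number, 53 deviated together (r over 0.1), a share not computed for other pairs. The mean correlation was 0.055 for pairs with the same number, against -0.008 for pairs with different numbers. Of 48 arrays, 11 were closest to one of their own number. In KO VPA mice the clock index was lower in replicates 5 to 8 than in replicates 1 to 4, as given above. Whether the numbers carry an order of processing was not tested. With the replicate block 7 members were called between KO and WT (Pdha1 and Ugp2 added), 10 between VPA and saline, 0 between HZ and WT and 0 in the interaction. Over all probesets the block gave 1231 calls between KO and WT, against 1046 without it, and 4004 between VPA and saline, against 3062.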
